A study of Mus musculus with 4 samples.

Results

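SIN3A and SIN3B are large scaffold proteins that carry histone deacetylases to DNA-bound repressors, and HBP1 is a DNA-binding repressor of the HMG-box family. The genes described here are Sin3a, Sin3b and Hbp1, the deacetylase genes Hdac1, Hdac2 and Hdac3, and the complex subunit genes Sap30, Suds3, Rbbp4 and Rbbp7, which makes 10 genes taken by symbol from the probe annotation. Hdac1 had no probe named for it and was not analysed here. The other 9 had 24 named probes, of which 16 had a detection p-value of at most 0.01 on at least 1 array and 14 on all 4 arrays. All 9 genes were therefore among the 8674 genes analysed, of 19057 on the array, and each was represented by its brightest detected probe. The question was whether Sin3b and Hbp1, which the study is known to name as targets of miR-17-92, behaved unlike the 7 partners. Both genes may have been picked by the study on these arrays, so their values are not independent evidence of a direction.

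The cells were CL4188, a conditional MYC lymphoma line of FVB/N origin in which doxycycline (DOX) shuts off MYC. One line held the empty retroviral vector MSCV and is called control cells, and the other held MSCV carrying the microRNA cluster miR-17-92 and is called miR-17-92 cells. RNA of both was hybridised to Illumina bead arrays from untreated cultures, with MYC on, and from cultures given DOX at 20 ng/ml for 48 hours, with MYC off. All 4 groups share the MYC transgene and a vector, and each held 1 array, so no value below has a replicate check, an error or a p-value. The sources used here do not say whether either vector line was 1 clone.

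The SIN3 proteins have no DNA-binding domain of their own. Repressors such as the MXD proteins, which compete with MYC for their shared partner MAX, recruit the SIN3 complex through the paired amphipathic helices of SIN3. The bound HDAC1 and HDAC2 then remove acetyl groups from histone tails. RBBP4 and RBBP7 hold histones, SAP30 and SUDS3 steady the complex, and SIN3B in particular is known for silencing cell-cycle genes when cells leave the cycle. HBP1 slows entry into S phase and binds SIN3 proteins, while HDAC3 works mainly in the separate NCoR-SMRT complex.

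The microRNAs of the vector choose their targets mainly through the seed, bases 2 to 8, and they are shown because Sin3b and Hbp1 were set against their partners as targets of this cluster. The sequences below are the main mature strands of the 6 mouse microRNAs from RefSeq (GRCm38.p6, plus strand), written 5′ to 3′ with the seed in capitals. All lie on chromosome 14, from base 115043684 to base 115044496.
mmu-miR-17-5p: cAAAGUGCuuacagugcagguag
mmu-miR-20a-5p: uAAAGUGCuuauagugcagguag
mmu-miR-18a-5p: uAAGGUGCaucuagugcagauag
mmu-miR-19a-3p: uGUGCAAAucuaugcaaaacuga
mmu-miR-19b-3p: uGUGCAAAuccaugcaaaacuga
mmu-miR-92a-3p: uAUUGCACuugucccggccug
The first 2 share the seed AAAGUGC, both miR-19 members share GUGCAAA, and miR-18a and miR-92a have seeds of their own, so the cluster brings 4 different seeds. Whether transcripts of the 10 genes hold matches to these seeds was not analysed here, and the arrays carry no readout of mature microRNAs.

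Between 13251 and 14864 of 45281 probes were detected per array, and precision is limited by having 4 arrays. Myc was detected without DOX in both lines and not detected with DOX in either. Mir17hg, the host transcript of the cluster's own locus, stood at 10.34 in control and 10.21 in miR-17-92 cells untreated. With DOX it was 12.4-fold lower in the first and 7.71-fold lower in the second, so its probe did not tell the vectors apart and gives no check of them. By the column headers the arrays without DOX share 1 slide, and those with DOX share another. DOX and slide therefore cannot be told apart within a line, whereas the comparison of both lines at the same DOX state lies within a slide. Of 13 T-cell markers with a probe, both arrays without DOX detected 10 and both arrays with DOX detected 12. The summed level of the 12 analysed ones was 131238 in control cells and 124844 in miR-17-92 cells without DOX, and 285804 and 221840 with DOX. Cd3d, Cd3e, Cd3g, Cd4 and Thy1 were detected on all 4 arrays. Of 6 B-cell and 8 myeloid markers, 0 were detected without DOX and 1 of each with DOX, Vpreb1 and Itgam. Of 4 natural killer and 6 stromal markers, 1 of each was detected on every array, Prf1 and Pecam1, and of 3 erythroid markers 0. Prf1 went from 1253 to 3264 with DOX in control cells and from 1448 to 1959 in miR-17-92 cells. Pecam1 went from 468 to 1756 and from 403 to 1068. The part of this shift in T-cell markers in the values below was not tested. In such bulk RNA, fewer cells of a type and less RNA per cell cannot be told apart.

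A level below is the log2 of the bead intensity after background correction and quantile normalization. Levels are compared between arrays for 1 probe at a time, since the brightness of different probes is not on a common scale. A log2 ratio of 1 is a 2-fold difference, which is the threshold of size used throughout.

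**Figure D1:**
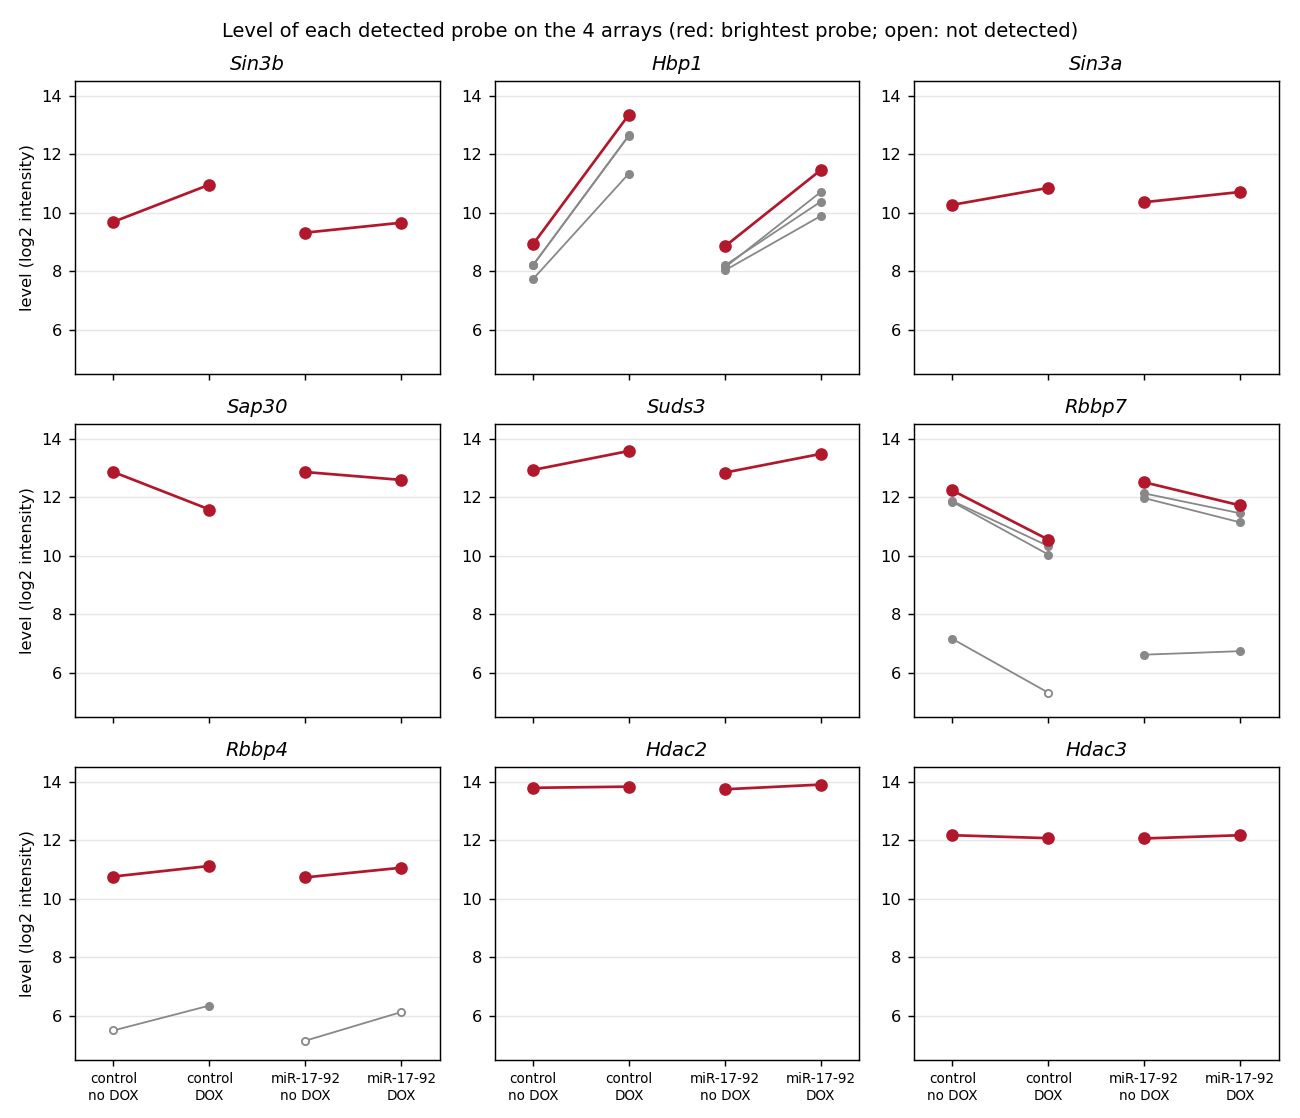
Level (log2 intensity, y axis) of each detected probe of the 9 genes on the 4 arrays (x axis). Red marks the brightest probe, grey the others, and open circles arrays on which the probe was not detected. Hbp1 climbs steeply with DOX and further in control cells (13.35) than in miR-17-92 cells (11.46), Sin3b does so more weakly, Sap30 and Rbbp7 go down, and Hdac2 and Hdac3 are nearly flat on this scale.

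With MYC off, Sin3b and Hbp1 stood higher in control cells than on any other array. Sin3b, the scaffold gene, had a level of 9.69 in control cells without DOX, 10.96 in control cells with DOX, 9.32 in miR-17-92 cells without DOX and 9.66 in miR-17-92 cells with DOX. In raw signal these were 875.1, 2113.4, 734.5 and 951.1. The control array with DOX was the high one, and the other arrays lay within 0.37 of each other. Sin3b was 2.41-fold higher with DOX in control cells (log2 1.27) and 1.27-fold higher in miR-17-92 cells (log2 0.34). The DOX effect in miR-17-92 cells was thus 26.8% of that in control cells on the log2 scale. This share depended on the scaling, as median scaling gave ratios of 0.60 in miR-17-92 cells and 1.42 in control cells.

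Hbp1, the repressor gene, had a level of 8.92 in control cells without DOX, 13.35 in control cells with DOX, 8.85 in miR-17-92 cells without DOX and 11.46 in miR-17-92 cells with DOX. The raw signals of its brightest probe were 544.5, 9166.2, 558.4 and 2907.9 in that order. Both DOX arrays were high, the control one by far the more, and both arrays without DOX were close. Hbp1 was 21.6-fold higher with DOX in control cells (log2 4.43), where 0.3% of all genes had a higher ratio. In miR-17-92 cells it was 6.12-fold higher (log2 2.61), with 1.36% of genes above it. Its DOX effect in miR-17-92 cells was 59.0% of that in control cells on the log2 scale.

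Hbp1 had 4 probes detected on all 4 arrays, which read 1 RNA pool and are not replicates. Their log2 ratios for the DOX effect ran from 3.61 to 4.45 in control cells and from 1.86 to 2.61 in miR-17-92 cells. Between the lines with DOX they ran from -2.24 to -1.44, so all 4 were lower in miR-17-92 cells. Without DOX 3 of them lay at -0.07, -0.07 and -0.02, and the dimmest at 0.30. The 2 other Hbp1 probes, one annotated to transcript NM_177993 and one to a cDNA clone, were not detected on any array, whereas the 4 detected ones are annotated to NM_153198. Sin3b rests on 1 probe, because its second was not detected on any array at this threshold.

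The promoters of both genes are shown because Hbp1 and Sin3b shared their direction in the comparisons above, each from 250 bases before to 50 bases after the annotated start (RefSeq, GRCm38.p6, on the strand of the gene, 5′ to 3′, matches to the motifs below in capitals). Hbp1 lies at chr12:31950196-31950495 on the minus strand and Sin3b at chr8:72723020-72723319 on the plus strand.
Hbp1: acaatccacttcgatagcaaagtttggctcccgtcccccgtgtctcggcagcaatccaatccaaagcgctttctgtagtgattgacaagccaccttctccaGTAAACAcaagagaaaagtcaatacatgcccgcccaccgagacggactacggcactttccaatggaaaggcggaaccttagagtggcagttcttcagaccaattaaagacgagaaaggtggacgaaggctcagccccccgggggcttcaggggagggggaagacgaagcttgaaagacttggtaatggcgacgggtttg
Sin3b: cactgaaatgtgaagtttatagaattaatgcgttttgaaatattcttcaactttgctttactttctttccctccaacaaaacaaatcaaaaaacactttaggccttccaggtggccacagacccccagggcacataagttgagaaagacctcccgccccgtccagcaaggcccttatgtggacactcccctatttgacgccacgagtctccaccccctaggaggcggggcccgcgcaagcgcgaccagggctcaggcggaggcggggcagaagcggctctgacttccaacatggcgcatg
Both strands were searched for the E-box CACGTG read by MYC and MAX, the E2F motifs TTTCCCGC and TTTGGCGC, and the forkhead motif GTAAACA. The single match was the forkhead motif in the Hbp1 window, which starts at -149 from the annotated start and is found in 3.65% of 32851 promoter windows. The annotated Hbp1 gene extends to base 31950530, which is upstream of the start used for this window. The Hbp1 window and its match therefore lie inside the annotated gene and not upstream of it. The E-box was found in 7.15% and either E2F motif in 1.56% of windows. Of the other members with a window in the table, Rbbp4 held an E-box at -224, and no match was found for Sin3a, Hdac2, Sap30, Suds3 or Rbbp7. A match describes the letters only, and these motifs do not overlap one another.

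Among the complex subunit genes Sap30, Suds3, Rbbp4 and Rbbp7, Rbbp7 and Sap30 went the other way. Rbbp7, which encodes a histone-binding protein, had levels of 12.23 and 10.55 in control cells without and with DOX, and 12.51 and 11.72 in miR-17-92 cells. It was 3.21-fold lower with DOX in control cells (log2 -1.68) and 1.72-fold lower in miR-17-92 cells (log2 -0.78). Its 3 probes detected on all arrays ranged from -1.80 to -1.54 in control cells and from -0.82 to -0.68 in miR-17-92 cells. In control cells a much dimmer Rbbp7 probe was not detected with DOX, which makes it at least 2.02-fold lower, and it stood at 0.11 in miR-17-92 cells.

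Sap30, a subunit that bridges SIN3 to other corepressors, had levels of 12.86 and 11.58 in control cells without and with DOX, and 12.86 and 12.59 in miR-17-92 cells. The control array with DOX was the low one. Sap30 was 2.41-fold lower with DOX in control cells (log2 -1.27) and 1.21-fold lower in miR-17-92 cells (log2 -0.27). It rests on 1 probe. Sap30 and Rbbp7 kept 21.5% and 46.6% of the control DOX effect in miR-17-92 cells. The share for Sap30 also depended on the scaling, with ratios of -0.56 in miR-17-92 and -1.51 in control cells by the authors' processed values.

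The other partners stayed within 2-fold in both lines. Sin3a, the paralogous scaffold, had levels of 10.27 and 10.85 in control cells without and with DOX and 10.36 and 10.71 in miR-17-92 cells, with log2 ratios of 0.58 and 0.35. Suds3, the subunit that steadies the deacetylase in the complex, stood at 12.93 and 13.58 in control cells and at 12.84 and 13.48 in miR-17-92 cells, with nearly equal ratios of 0.65 and 0.64. Rbbp4, the paralog of Rbbp7, stood at 10.76 and 11.12 and at 10.73 and 11.06, again with near-equal ratios of 0.35 and 0.34. Suds3 and Rbbp4 thus differed little between the lines. A second Rbbp4 probe was detected on the control array with DOX alone and gives no fold for the DOX effect.

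The deacetylase genes differed little between arrays. Hdac2, the class I deacetylase of the complex, ranged over 0.16 across the 4 arrays, from 13.74 to 13.90, and Hdac3, the catalytic subunit of NCoR-SMRT, over 0.11, from 12.06 to 12.17. Their log2 ratios with DOX were 0.03 and -0.09 in control cells and 0.16 and 0.11 in miR-17-92 cells. The signs of 3 of these 4 values depended on the scaling, and Hdac3 in control cells stayed below 0. With the authors' processed values the ratios in control cells were -0.49 for Hdac2 and -0.37 for Hdac3, and in miR-17-92 cells -0.22 and -0.10. With the authors' values Suds3 stood at 0.23 and Rbbp4 at 0.24 in control cells, nearer to 0 than both deacetylase genes. With median scaling Hdac2 stood at -0.34 there.

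**Figure D2:**
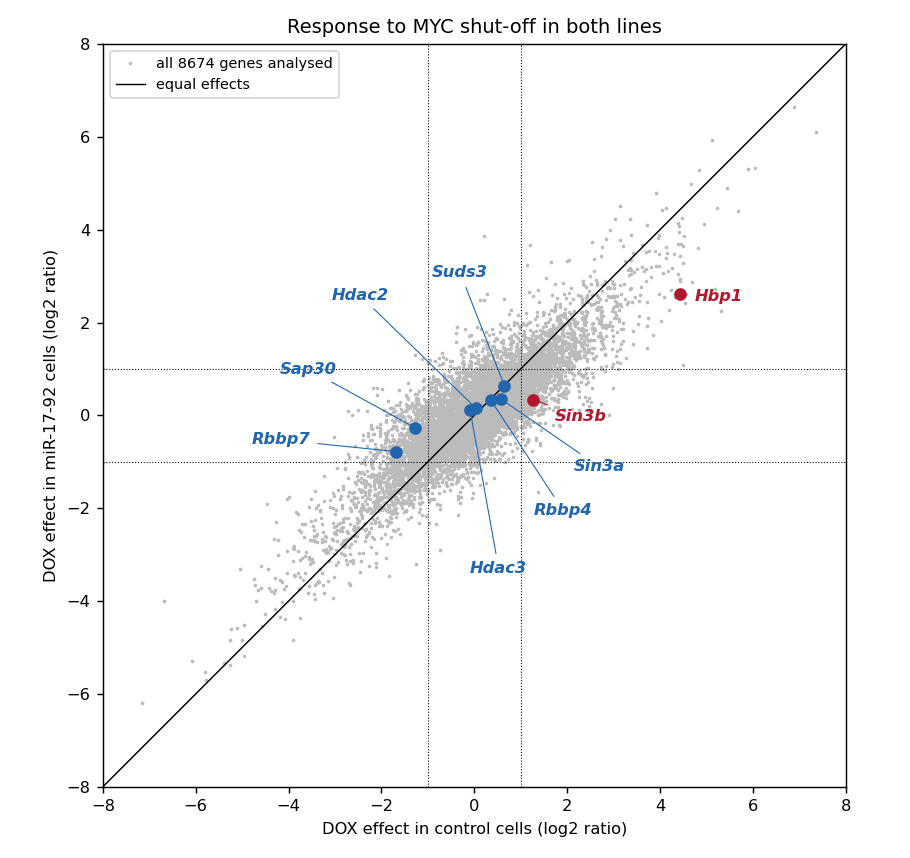
DOX effect (log2 ratio of DOX to no DOX) in control cells (x axis) against miR-17-92 cells (y axis) for all 8674 genes (grey), with Sin3b and Hbp1 in red and their 7 partners in blue. The solid line marks equal effects and dotted lines 2-fold. Hbp1 (4.43, 2.61) and Sin3b (1.27, 0.34) lie to the right of and below the line of equal effects, and Sap30 and Rbbp7 to the left of and above it.

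In control cells 2 of the 9 members were past 2-fold upward with DOX and 2 downward, with a median log2 ratio of 0.35. Over all genes analysed 19.9% were 2-fold higher and 18.0% 2-fold lower, 37.9% either way, with a median of 0.06. In miR-17-92 cells Hbp1 alone was past 2-fold, against 14.8% of all genes 2-fold higher and 12.8% lower, 27.5% either way. The members' median was 0.34 there and that of all genes 0.09. Nothing is read from these counts of 9 genes beside the background. The split of all genes depended on the scaling, with 52.4% of the genes past 2-fold in control cells being higher as reported, 62.2% with median scaling and 40.1% with the authors' processed values. In miR-17-92 cells these shares were 53.6%, 66.3% and 41.2%. The median of all genes in control cells moved from 0.06 to 0.24 and -0.13 under these scalings. Relative to that median, Sin3b lay between 1.11 and 1.26 and Hbp1 between 4.02 and 4.42 in control cells under every setting tried, Rbbp7 between -1.90 and -1.64 and Sap30 between -1.62 and -1.28.

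Compared within the slide with DOX, miR-17-92 cells had less Sin3b and Hbp1 and more Rbbp7 and Sap30 than control cells. Sin3b was 2.46-fold lower (log2 -1.30), and 2.05% of all genes had a lower ratio. Hbp1 was 3.71-fold lower (log2 -1.89), and 0.461% of genes lay below it. Rbbp7 was 2.25-fold higher (log2 1.17) and Sap30 2.01-fold higher (log2 1.01). The other 5 members ranged from -0.14 for Sin3a to 0.10 for Hdac3. Over all genes 6.36% were 2-fold higher and 4.83% 2-fold lower, 11.2% either way, with a median of 0.00. Sap30 sat at the threshold, and without background correction its ratio was 0.98.

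Without DOX the members hardly differed between the lines. Sin3b was 1.29-fold lower in miR-17-92 cells (log2 -0.37), which was lower than each of the other 8 members, and 10.0% of all genes lay below it. Hbp1 was at -0.07, and averaging its probes gave 0.04, with the sign turned. The 7 partners ranged from -0.10 (Hdac3) to 0.28 (Rbbp7), with a median of -0.04. No member was past 2-fold, against 1.18% of all genes higher and 1.04% lower, 2.21% either way.

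In place of replicates, the gap between the 2 brightest detected probes of a gene gives a scale for the spread between probes. It was taken over 3502 genes. Both probes read the same RNA on the same arrays, so the gap leaves out errors that they share. It also says nothing about the spread between arrays or between cultures. For the comparison of the lines with DOX the absolute gap had a median of log2 0.23 and a 90th percentile of 0.68, below the ratios of Sin3b, Hbp1, Rbbp7 and Sap30. Without DOX these were 0.18 and 0.60, so the -0.37 of Sin3b lay inside the range that probes of 1 gene often show. For the DOX effect in control cells they were 0.32 and 1.02, and Sin3b (1.27) and Sap30 (-1.27) lay a little beyond the 90th percentile. For the DOX effect in miR-17-92 cells they were 0.31 and 0.99, so Sin3b (0.34) and Sap30 (-0.27) lay near the median gap.

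**Figure D3:**
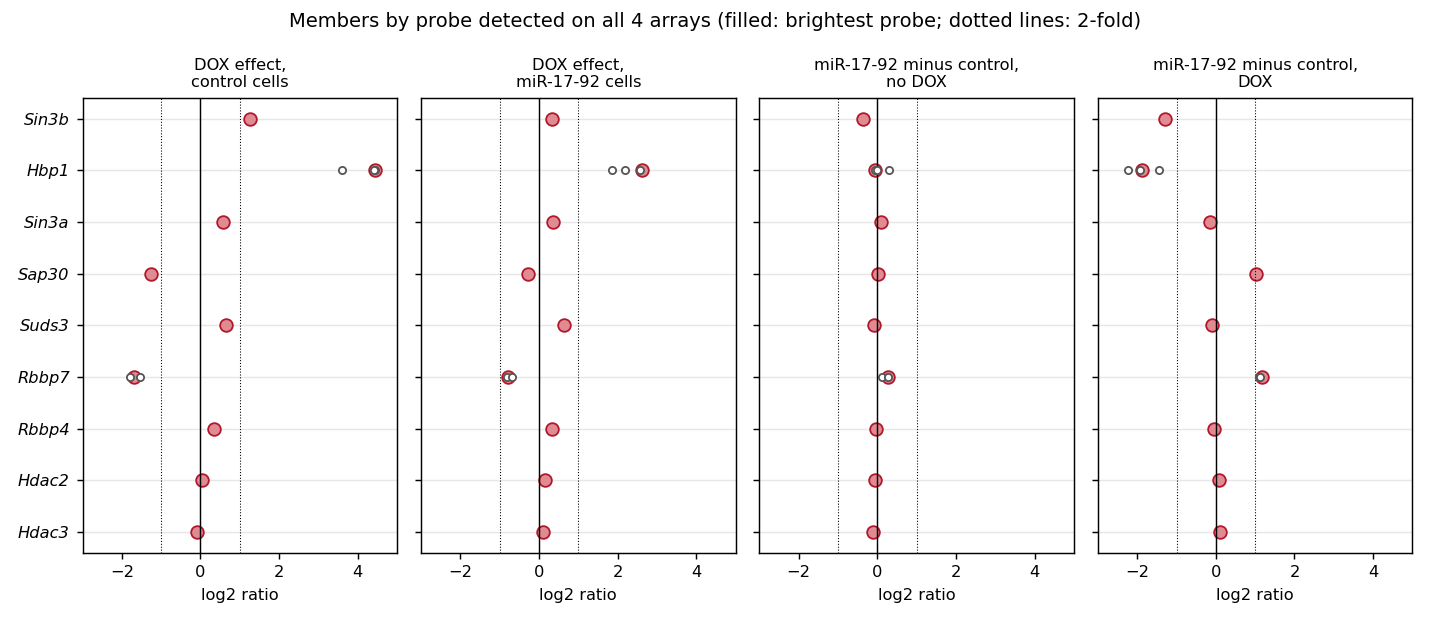
Log2 ratio (x axis) of each member (y axis) in the 4 comparisons, 1 panel each. Filled points are the brightest probe, open points other probes detected on all 4 arrays, and dotted lines mark 2-fold. In the panel with DOX, Sin3b (-1.30) and all Hbp1 probes lie below -1, Rbbp7 (1.17) and Sap30 (1.01) above 1 and the other members near 0.

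Subtracting the DOX effect in control cells from that in miR-17-92 cells asks which members responded differently to MYC loss. This difference of DOX effects was -1.82 for Hbp1 and -0.93 for Sin3b, and 0.484% and 5.94% of all genes lay lower. For this difference the gap between probes of 1 gene had a 90th percentile of 0.87, which Sin3b and Rbbp7 (0.90) only just passed. Sin3b lay inside that value without background correction (-0.86), with median scaling (-0.82) and with the authors' processed values (-0.79). So did Rbbp7, at 0.84, 0.84 and 0.81. The percentile itself was taken under the reported setting alone. The 7 partners of Hbp1 and Sin3b ranged from -0.23 for Sin3a to just under 2-fold higher for Sap30, with a median of 0.12. Rbbp7 followed at 0.90, Hdac3 at 0.20 and Hdac2 at 0.12, and Suds3 and Rbbp4 both lay at -0.02. By the threshold, Hbp1 alone was 2-fold lower and 0 members were 2-fold higher, against 4.82% and 7.1% of all genes and 11.9% either way. An offset between slides that both lines share drops out of this difference, which still rests on 4 single arrays. Sin3b and Hbp1 thus lay below every partner, Sin3b by 0.70 under its paralog Sin3a. Rbbp7 and Sap30 lay on the opposite side of 0 and the remaining partners close to it. Hbp1, Sin3b, Rbbp7 and Sap30 each had a smaller DOX effect in miR-17-92 cells. Each difference was therefore opposite in sign to the control effect. These are the members past 2-fold in control cells, so a smaller value in the other line carries no weight by itself. The control effect is also subtracted in the difference. Over all genes, 37.9% were past 2-fold with DOX in control cells and 27.5% in miR-17-92 cells. The smaller effect was not particular to Sin3b and Hbp1, which kept 26.8% and 59.0%, since Sap30 kept 21.5% and Rbbp7 46.6%. In miR-17-92 cells the DOX ratio of Sin3b (0.34) was like those of Sin3a (0.35) and Rbbp4 (0.34).

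As a pattern over the 4 arrays, Sin3b and Hbp1 were not each other's nearest genes. Likeness was measured as the Euclidean distance between the 4 log2 levels, each gene centred on its own mean, among 6949 genes detected on all 4 arrays. Nearest to Sin3b were Acadm at 0.03, which encodes an enzyme of fatty acid oxidation, Srpk2 and Arhgap1 at 0.12, Myo1g at 0.15 and Gramd3 at 0.16. Acadm stood at 12.35 and 13.59 in control cells without and with DOX and at 11.96 and 12.27 in miR-17-92 cells. Nearest to Hbp1 were Fam214a at 0.32, Pik3r3 at 0.43, which encodes a regulatory subunit of PI3 kinase, Ampd1 at 0.58, Snn at 0.61 and Cyp11a1 at 0.64. Fam214a stood at 7.38 and 11.36 in control cells and at 7.07 and 9.68 in miR-17-92 cells. Among members the one nearest to Sin3b was Suds3 at 0.88, the gene of rank 1207 by distance. Sin3b was the member nearest to Hbp1, at 2.76, and Rbbp7 the farthest from Hbp1 at 5.23.

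Of 13 further subunits of the SIN3 complex listed, 8 were analysed, and 2 were 2-fold higher with DOX in control cells and 0 lower, with a median of 0.03, against 19.9% and 18.0% of all genes. Arid4a, which encodes a protein that binds RB, was 4.23-fold higher in control cells and 3.60-fold higher in miR-17-92 cells. Its paralog Arid4b was 3.09-fold and at least 2.03-fold higher. Sap18 stood at -0.76 and -0.22. Ing2, which encodes a reader of methylated histone H3, stood at -0.50 in control cells and 0.49 in miR-17-92 cells, and was 2.18-fold higher in miR-17-92 cells with DOX.

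SIN3B also works in a complex with PHF12, MORF4L1 and the histone demethylase KDM5A. Of 6 listed genes of this complex, all analysed, 3 were 2-fold higher with DOX in control cells and 1 lower (median 0.73), against 19.9% and 18.0% of all genes. Kdm5a was 4.71-fold higher, Emsy 2.23-fold and Phf12 2.18-fold, and Morf4l2 was 2.31-fold lower. In miR-17-92 cells Kdm5a was 2.58-fold higher and Emsy, Phf12 and Morf4l2 were within 2-fold at 0.93, 0.99 and -0.69. Between the lines with DOX 0 of the 6 were past 2-fold, against 11.2% of all genes, with a range from -0.41 to 0.62.

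Of 7 analysed MYC network genes, which include the MXD repressors that bring SIN3 to DNA, 3 were 2-fold higher with DOX in control cells by measured ratio, 1 more by its bound and 0 lower, against 19.9% of all genes higher. The third by measured ratio was Mlx, which encodes a partner of the MXD proteins, at 1.03. Mxd4 was 7.14-fold higher in control cells and 3.71-fold in miR-17-92 cells. Mxd1 was at least 2.39-fold higher in control cells and too close to the floor for a fold in miR-17-92 cells. Mxd3 was 2.60-fold higher in control cells and at least 3.76-fold higher in miR-17-92 cells, and Mga was detected with DOX alone and gives no fold. With DOX, Mxd1 was 2.73-fold and Mxd4 2.17-fold lower in miR-17-92 than in control cells, and the list's median was -0.57.

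RBBP4 and RBBP7 also serve the chromatin assembly factor CAF-1 and the Polycomb complex PRC2. Both CAF-1 genes shared the direction of Rbbp7, whose DOX ratios were -1.68 in control and -0.78 in miR-17-92 cells. In miR-17-92 cells they changed less than Rbbp7 did. Rbbp4 went upward in both lines (0.35 and 0.34). Chaf1a was 2.83-fold lower with DOX in control cells and 1.14-fold lower in miR-17-92 cells, and Chaf1b 2.37-fold and 1.03-fold lower. With DOX they were 2.52-fold and 2.01-fold higher in miR-17-92 cells. Of the PRC2 genes Ezh2, the methyltransferase, was 2.38-fold higher with DOX in control cells and 3.32-fold in miR-17-92 cells, and Eed stood at -0.88 and -0.75.

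Of the other corepressor complexes, NuRD, CoREST, NCoR-SMRT and MiDAC were read, with 37.9% of all genes past 2-fold with DOX in control cells and 27.5% in miR-17-92 cells. Of 7 analysed NuRD genes, 1 was 2-fold lower with DOX in control cells, Mbd3 at 2.71-fold, and 0 were higher, while Chd3 (0.96), Gatad2b (0.80) and Mta1 (-0.78) were within 2-fold. Of 5 analysed CoREST genes, 4 had a measured ratio in control cells and all 4 were within 2-fold, from Rcor2 at -0.82 to Hmg20b at 0.61, with Rcor1 at 0.39 and Kdm1a at 0.36. So were the 3 NCoR-SMRT genes Tbl1x (0.66), Gps2 (0.46) and Tbl1xr1 (0.34), and the 2 MiDAC genes Trerf1 (0.33) and Dnttip1 (0.24). In miR-17-92 cells Mbd3 was 2.07-fold lower and Trerf1, which encodes a MiDAC subunit, 2.48-fold higher with DOX, and the other genes of these complexes with a measured ratio were within 2-fold. Between the lines with DOX, 0 of these 17 genes were past 2-fold, against 11.2% of all genes, and nothing is read from so few genes.

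**Figure D4:**
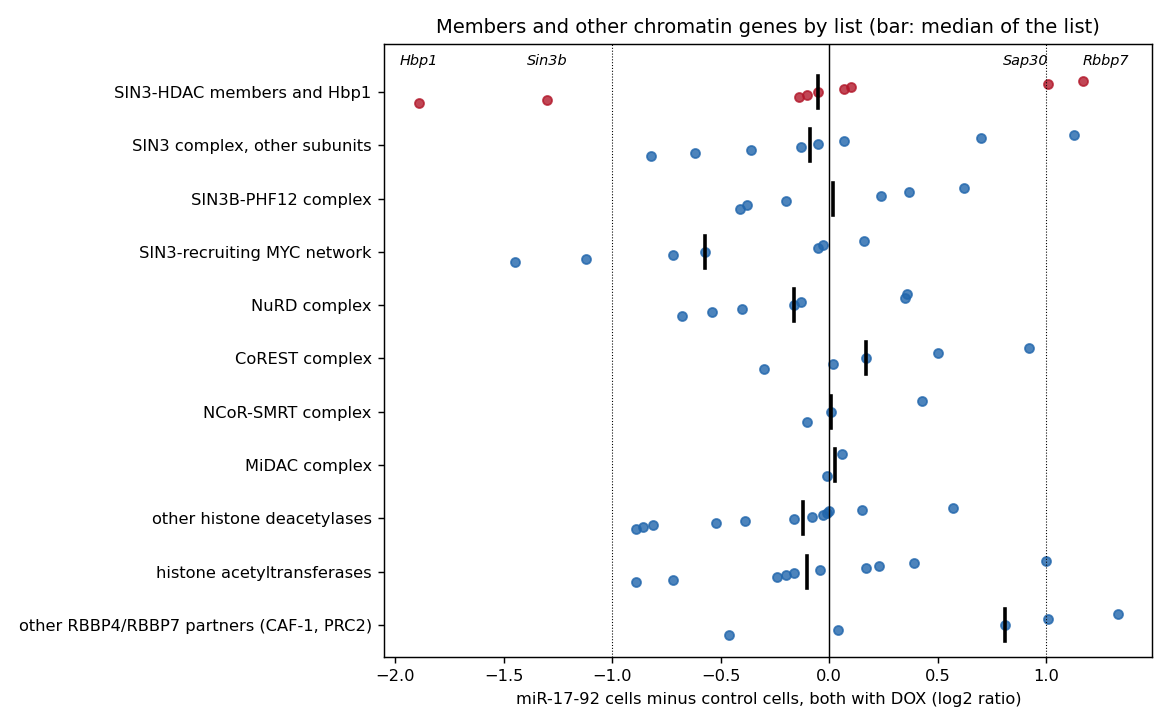
Log2 ratio of miR-17-92 to control cells, both with DOX (x axis), for the 9 members (red) and for the analysed genes of the other chromatin lists (blue, 1 line per list, y axis). Genes measured on both arrays are drawn, black bars mark the median of each line and dotted lines 2-fold. Hbp1 (-1.89) and Sin3b (-1.30) lie at the left, with Mxd1 (-1.45) the single blue point to the left of Sin3b.

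Of the 67 analysed chromatin genes of these lists and of the deacetylase and acetyltransferase lists, 65 were measured on both arrays with DOX. Among these, 4 had at least 2-fold more signal and 2 at least 2-fold less in miR-17-92 cells, with a median of -0.05, near the 6.36% and 4.83% of all genes. Of these 65, 1 lay below Sin3b and 0 below Hbp1. The one below Sin3b was Mxd1, singled out here by its value and already named above for its DOX effect in control cells.

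Genes reported as targets of HBP1, mostly in human cells, were also read. Of 9 listed, 6 were analysed, and 5 had a measured ratio or a bound between the lines with DOX. Of these 5, with a median of 1.16 on the log2 scale, 2 were measured and 1 bounded at 2-fold or more higher in miR-17-92 cells, against 6.36% of all genes. Nothing particular to the list is read from so few genes. Dnmt1, the maintenance DNA methyltransferase, was 2.26-fold higher, and Mif, a cytokine gene, 2.23-fold. Cdkn1a, which encodes the inhibitor p21, was at least 3.85-fold higher. Ezh2 stood at 0.81, Ccnd1 was detected on neither array, and Cdkn2a was at 0.00. Cdkn1a and Ccnd1 already differed between the lines without DOX, where Hbp1 stood at -0.07. In that state Cdkn1a was at least 1.84-fold and Ccnd1 2.39-fold higher in miR-17-92 cells. Dnmt1, Ezh2, Mif and Cdkn2a lay from -0.22 to 0.33 there. Dnmt1 had DOX effects of -0.82 in control cells and 0.49 in miR-17-92 cells, Mif of -1.72 and -0.55, and Cdkn2a of -0.84 and -0.62. HBP1 is reported to repress some of these genes and to activate others, so the list has no single direction.

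**Figure D5:**
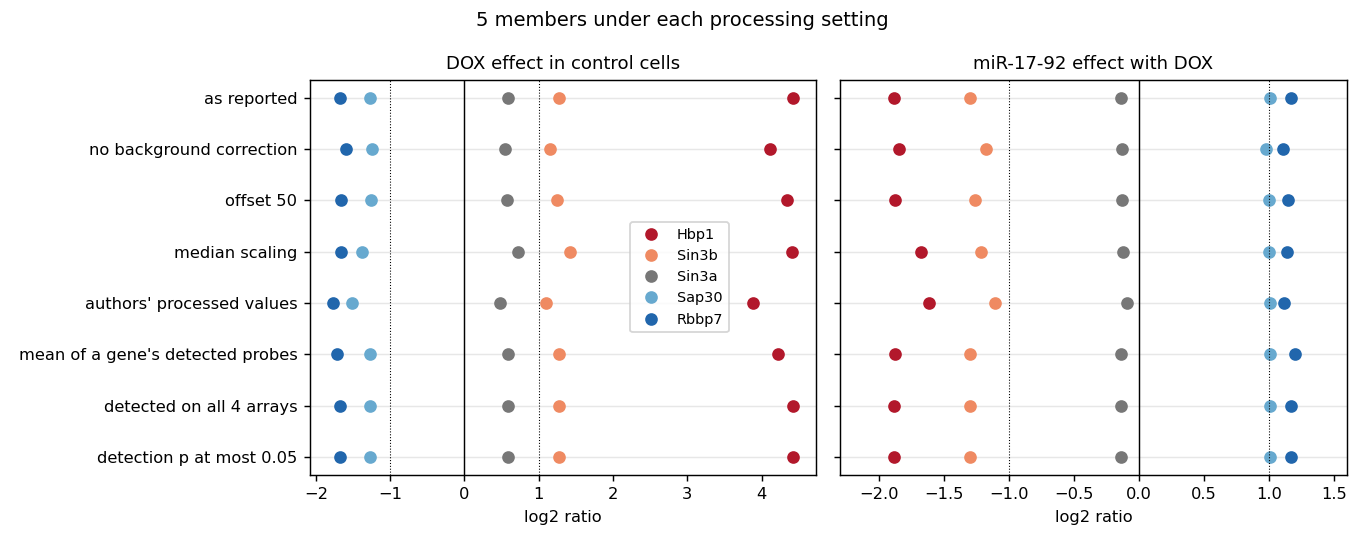
Log2 ratio (x axis) of 5 members under the reported and 7 alternative processing settings (y axis), for the DOX effect in control cells (left) and for miR-17-92 against control cells with DOX (right). Dotted lines mark 2-fold. In both panels the order of the 5 genes from lowest to highest is the same under all settings, with Sap30 at the 2-fold line on the right (0.98 to 1.01).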

How the data were processed

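The members and gene lists were chosen with earlier results of these data known. Biotin-labelled RNA was read on 4 Illumina arrays. The deposited table without normalization holds, per the file headers, a bead intensity on a linear scale and an unadjusted detection p-value per probe. GenomeStudio is named in the submitters' processing notes, with no version. Detection columns carry slide positions and were linked to arrays by their values, with 0 order breaks on the own array and at least 16605 on any other. The authors' processed intensity values are a per-array rescaling (0 rank breaks) by an unstated method.

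With limma 3.58.1 in R 4.3.3, signals were corrected by the normal-exponential method from the detection p-values, with an offset of 16, then log2 transformed and quantile normalized. Quantile normalization hides a shift common to all genes. Of 45281 probes, 34885 had 1 gene in the platform annotation, 18 several and 10378 none, and 34807 of the first were given a current symbol through the gene number. A gene undetected on the dim array is given as a bound, the bright level over the dim probe's own level or the lowest detected level of that array, whichever is higher. Counts over all genes use every fitted ratio, undetected arrays included, whereas list counts separate measured ratios from bounds. Named genes were all members, up to 4 genes per list with the largest DOX effect in control cells, those completing a count, and the 5 nearest profiles, without clone or predicted names. The procedure was tested on simulated data with few probes changed, equally upward and downward, on a single array. That test does not cover a change as broad as the DOX effect here. Alternatives were no background correction, an offset of 50, median scaling, the authors' processed values, the mean of a gene's probes, detection on all 4 arrays and a detection p of at most 0.05.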

Additional observations from a re-analysis of the deposited data

Results flagged for a closer look

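The DOX effects of 3 named genes had opposite signs in the lines. Each rests on 1 array per group, and the difference was not tested. Hdac3 stood at -0.09 in control cells and 0.11 in miR-17-92 cells, and the second value was -0.10 with the authors' processed values, so the contrast ended there. Ing2 stood at -0.50 in control cells and 0.49 in miR-17-92 cells. Dnmt1 stood at -0.82 and 0.49.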

How the results depend on the processing

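Under the 7 alternatives the log2 ratios of Sin3b, Hbp1, Rbbp7 and Sap30 kept their direction in both DOX comparisons, between the lines with DOX and in the difference of the DOX effects. A value was counted as moved when it shifted by more than the spread per probe, log2 0.33 for the DOX effect in control cells, 0.32 in miR-17-92 cells, 0.19 and 0.24 between the lines without and with DOX, and 0.31 for the difference. With the authors' processed values Hbp1 was 3.89 for the DOX effect in control cells and -1.62 between the lines with DOX. The mean of a gene's probes put 2 members past 2-fold in the difference, with Rbbp7 (1.17) added to Hbp1. Between the lines with DOX, 3 members in place of 4 were past 2-fold without background correction, with an offset of 50 and with median scaling, which put Sap30 just under the threshold. Over all genes, counts past 2-fold moved more. Between the lines without DOX they were 192 as reported, 13 without background correction, 55 with an offset of 50, 9 with the authors' processed values, 27 with detection on all 4 arrays and 291 at a detection p threshold of 0.05. Between the lines with DOX they were 971, with 471 without background correction and 502 with the authors' processed values. For the difference they were 1034, with 421, 444 and, with detection on all 4 arrays, 627. For the DOX effect in miR-17-92 cells they were 2389, with 1497 without background correction. The higher share of these calls was 56.8% between the lines with DOX and 66.9% with the authors' processed values. For the difference it was 59.6%, 71.6% with those values and 69.5% with detection on all 4 arrays. The cause was not tested. No paired analysis was possible because the groups share no replicate numbers beyond 1 array each, and for the same reason no array could be left out. A fit with DOX and line as additive terms, which pairs the DOX states within a line, has 1 residual degree of freedom and was not run, since its residual is the difference of the DOX effects reported here.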

Other observations

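Enzymes that write and erase histone acetylation outside the SIN3 complex were read as well. Of 13 analysed genes of other deacetylases, 4 lay past 2-fold upward and 1 downward in control cells given DOX, by measured ratio. The shares over all genes were 19.9% upward and 18.0% downward. Hdac7, a class IIa deacetylase of thymocytes, was 6.68-fold higher in control cells and 4.73-fold in miR-17-92 cells, Hdac5, of the same class, 3.93-fold and 2.78-fold, and Sirt7 2.42-fold and 1.64-fold. Hdac4 was 2.40-fold lower in control cells and 2.08-fold in miR-17-92 cells. Sirt2 was 2.11-fold higher in control cells, and Hdac6, undetected with DOX, at least 1.51-fold lower.

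Of 10 acetyltransferase genes, 3 lay past 2-fold upward and 2 downward in control cells given DOX, by measured ratio. Over all genes 19.9% were higher and 18.0% lower. Kat2a, which encodes GCN5, was 9.26-fold lower in control cells and 7.63-fold in miR-17-92 cells. Ep300 was 3.48-fold higher in control cells and 1.89-fold in miR-17-92 cells, Crebbp 2.47-fold and 1.96-fold, and Kat6b 2.47-fold and 1.83-fold. Kat6a, undetected without DOX, was higher by at least 1.38-fold and at least 1.36-fold. Hat1, which acetylates new histones and pairs with RBBP7, was 2.33-fold lower in control cells and 1.26-fold in miR-17-92 cells, and lay at the 2-fold line between the lines with DOX, where Rbbp7 stood at 1.17.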
